A study of Mus musculus with 13 samples.

Results

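Transcripts of 10 chemokine and cytokine genes were followed in isolated mouse glomeruli, out of 35967 gene symbols measured. They were taken by name, as the rows for the CC chemokines *Ccl2* and *Ccl7*, the CXC chemokines *Cxcl1*, *Cxcl2*, *Cxcl10*, *Cxcl12* and *Cxcl16*, the CX3C chemokine *Cx3cl1*, and the cytokines *Il6* and *Il34*, and all 10 were present. Wildtype Balb/c mice had received 2.0 mg of IgG intraperitoneally. Control mice received rabbit preimmune IgG (n = 5 libraries), and membranous nephropathy (MN) mice received rabbit IgG against THSD7A, a membrane protein of podocytes, with glomeruli taken on day 1 (n = 4) or day 5 (n = 4). Control mice of both days were pooled by the authors, and the MN model is described for males of 14 to 15 weeks, with no separate age for the sequenced mice. The model is a passive transfer, so the antibody is made in rabbits and is foreign to the mouse. The libraries are described as biologically independent animals. Values are TPM, each transcript's share of all transcripts in a library on a fixed total, which are adjusted for transcript length and so allow levels of different genes to be compared within a library.

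Chemokines are small secreted proteins that guide leukocytes through G protein-coupled receptors, and they are grouped by the spacing of their first cysteines. CCL2 and CCL7 recruit monocytes, CXCL1 and CXCL2 recruit neutrophils, and CXCL10 is induced by interferons and attracts activated T cells, whereas CXCL12 is a constitutive, homeostatic chemokine. CXCL16 and CX3CL1 are made as membrane-anchored proteins that metalloproteases release, IL-6 is a classical acute inflammatory cytokine, and IL-34 is a ligand of the CSF1 receptor that maintains macrophages.

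The 10 genes fell into separate tiers of abundance, and 4 of them exceeded the other 6 in 13 of 13 libraries, control and MN alike. *Cx3cl1* (82.5 ± 15.5 TPM in control libraries, SD, n = 5) and *Il34* (68.9 ± 10.001, SD, n = 5) were the highest, and their control ranges overlapped. *Cxcl12* (24.5 ± 2.72, SD, n = 5) and *Cxcl16* (18.8 ± 3.22, SD, n = 5) came next, again with overlapping control ranges, and each was below *Il34* in 13 of 13 libraries. *Cxcl10* (1.79 ± 0.941, SD, n = 5) and *Cxcl1* (1.71 ± 0.850, SD, n = 5) were not separated from each other, and *Cxcl16* exceeded *Cxcl10* 10.5-fold by control means. *Cxcl2* averaged 0.486 ± 0.572 (SD, n = 5), and *Ccl2*, *Ccl7* and *Il6* were listed at 0 in all 5 control libraries. The 4 highest genes made up 94.3% to 98.8% of the summed TPM of the 10 genes in every library. That sum had a median of 197 in control, 199 in day 1 MN and 195 in day 5 MN libraries. In bulk glomeruli, a change in the number of cells that make a transcript and a change in transcript per cell cannot be told apart.

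**Figure D1:**
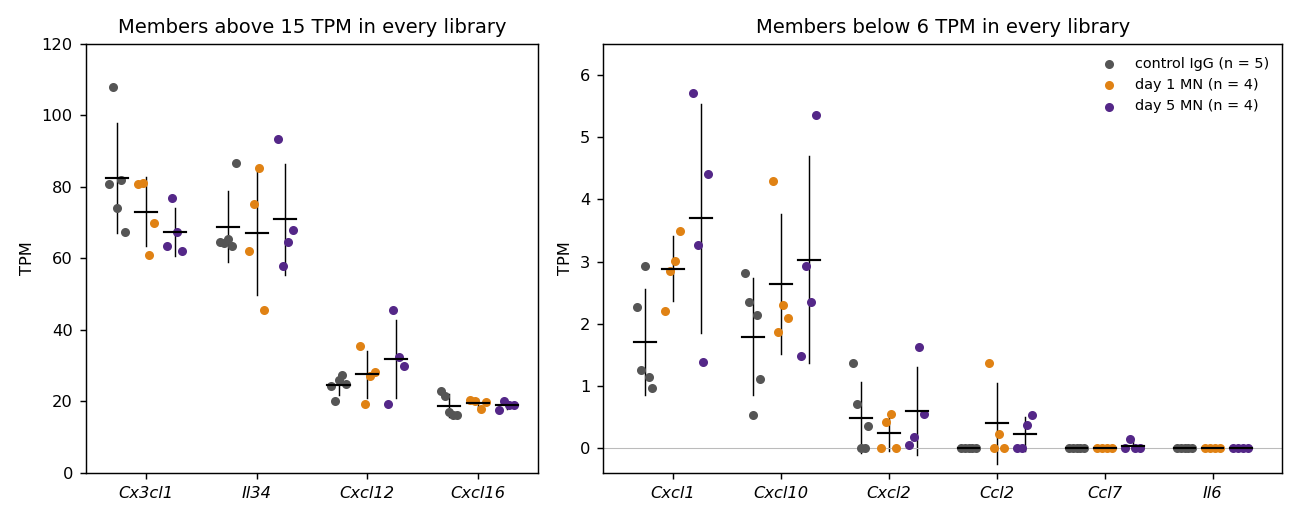
TPM of the 10 genes in each library (points), with group means (horizontal bars) and SD (vertical bars), for control IgG (grey), day 1 MN (orange) and day 5 MN (purple). Both vertical axes are linear and differ in scale. *Cx3cl1*, *Il34*, *Cxcl12* and *Cxcl16* lie above 15 TPM in every library and the other 6 genes below 6 TPM, and the groups overlap for each gene.

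Of the 10 genes, 6 reached 1 TPM in 4 or more libraries and were tested. All 3 groups entered 1 limma fit over 14322 genes, and a gene was called where its Benjamini-Hochberg adjusted p was under 0.05 and its log2 fold change exceeded 0.5 in either direction. Fold changes are on the scale of log2(scaled TPM + 0.5), which understates changes of low genes. None of the 6 genes was called at day 1 (0 of 6, against 0.0908% of all tested genes, 0.0559% higher and 0.0349% lower) or at day 5 (0 of 6, against 3.21%, 2.42% higher and 0.789% lower), and none between day 5 and day 1 MN (0 of 6, against 1.81%, 1.41% higher and 0.398% lower). At an unadjusted p under 0.05 in the limma fit, 0 of 6 passed at day 1 (12.6% of all tested genes) and 1 of 6, *Cxcl1*, at day 5 (20.1%). No gene of the 6 had MN libraries that did not overlap with control libraries at day 1 (3.5% of all tested genes) or at day 5 (10.7%). The median log2 fold change of the 6 genes was 0.15 at day 1 and 0.21 at day 5, with 4 and 5 of 6 above 0 (49.2% and 49.3% of all tested genes), while the median of all tested genes was -0.0029 and -0.0032. The number of genes called at day 1 rested on control replicate 5, without which 217 genes were called, none of them among the 6.

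**Figure D2:**
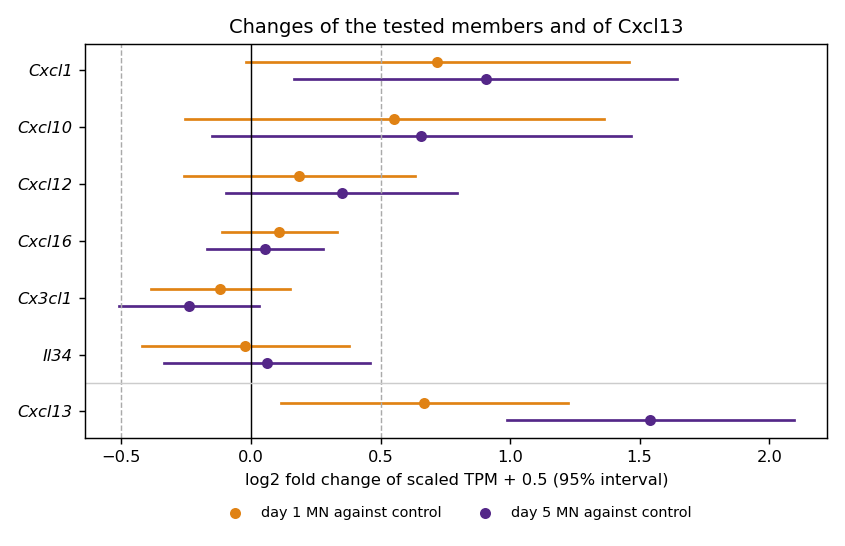
Log2 fold change of MN against control libraries (points) with 95% intervals from limma (lines) for the 6 tested genes and, below the grey line, *Cxcl13*, at day 1 (orange) and day 5 (purple). Dashed lines mark the fold change threshold of 0.5 in either direction. The intervals of *Cxcl16* stay between -0.17 and 0.33, those of *Cxcl1* and *Cxcl10* reach 1.65 and 1.46, and *Cxcl13* lies at 1.54 on day 5.

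*Cxcl1*, the neutrophil chemokine, had the largest fitted increase of the 6 genes at both days. Its TPM was 2.26, 1.25, 2.93, 1.14 and 0.961 in control replicates 1 to 5. On day 1 of MN it was 2.21, 2.85, 3.001 and 3.49, and on day 5 it was 5.72, 3.27, 1.38 and 4.41. Day 5 replicate 3 thus lay within the control range while the other day 5 libraries lay above it, and on day 1 replicates 3 and 4 lay above the control maximum. The log2 fold change was 0.72 at day 1 (95% interval -0.02 to 1.46, adjusted p = 0.41, limma) and 0.91 at day 5 (0.17 to 1.65, adjusted p = 0.153, limma). Without day 5 replicate 3 the day 5 value was 1.27 with an adjusted p of 0.0237 (limma), the only setting among 24 alternatives in which *Cxcl1* was called, and over these alternatives the adjusted p ranged from 0.0237 to 0.442.

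*Cxcl2*, which lies next to *Cxcl1* on chromosome 5 and encodes a closely related neutrophil chemokine, had low values in all groups. Its TPM was 1.36, 0.712, 0, 0 and 0.358 in control replicates 1 to 5. It was 0, 0.422, 0.545 and 0 on day 1, and 0.0486, 0.174, 1.62 and 0.553 on day 5. The highest value was that of day 5 replicate 3, the day 5 library with the lowest *Cxcl1*. Means did not differ beyond the spread by an exact two-sided permutation test of log2(scaled TPM + 0.5), with p = 0.619 at day 1 and p = 0.825 at day 5, where 126 splits allow a smallest p of 0.0159. The transcripts of *Cxcl1* and *Cxcl2* had 0 words of 31 bases in common, the default length by which Kallisto assigns reads. Of the words of *Cxcl2*, 7.59% also occurred in *Cxcl3* transcripts, and the effect of this on the value of *Cxcl2* was not tested. *Cxcl3* was at most 0.115 TPM in any library.

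*Cxcl10*, the interferon-inducible T cell chemokine, had TPM of 2.82, 2.35, 0.527, 2.14 and 1.12 in control replicates 1 to 5. On day 1 it was 4.30, 1.86, 2.31 and 2.10, and on day 5 it was 1.48, 2.93, 2.35 and 5.36. Above the control maximum were replicate 1 on day 1 and replicates 2 and 4 on day 5. The log2 fold change was 0.55 at day 1 (95% interval -0.25 to 1.36, adjusted p = 0.569, limma) and 0.66 at day 5 (-0.15 to 1.46, adjusted p = 0.364, limma). For *Cxcl1* and *Cxcl10* the upper ends of these intervals correspond to a fold of 3.13 and 2.76 at day 5, so increases of that size lie within the error of these libraries.

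The monocyte chemokines were close to 0 throughout. *Ccl2* was listed at 0 in 5 of 5 control libraries, had TPM of 1.36, 0, 0.229 and 0 on day 1, and 0, 0, 0.374 and 0.533 on day 5. It was thus above 0 in 4 of 8 MN libraries and in no control library. All MN libraries together were not tested against control. The exact two-sided permutation test by day gave p = 0.333 at each day. With 2 values above 0 on each day, both in MN libraries, this is the lowest p that these values allow. The test could thus not pass. *Ccl7*, its neighbour on chromosome 11, was above 0 in 1 library, day 5 replicate 2, at 0.146. *Il6* was listed at 0 in 13 of 13 libraries, which leaves nothing to test. No count or depth was available to set a detection limit for these genes. None of 24 widely expressed control genes was listed at 0 in any library. Their lowest value was 6.99 TPM, so they do not show what would be detected near 0.

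Promoter sequence was compared between the low and the high members, because the low group holds classical inflammatory genes. RefSeq promoter windows (GRCm38.p6) were found for 6 of the 10 genes, and *Ccl2*, *Ccl7*, *Cxcl16* and *Il34* were not matched. In the 250 bases before the transcription start, the NF-kB-like motif, GGGA and CC with any 4 bases between them, searched on both strands, was found in 4 of 4 low members (*Cxcl1*, *Cxcl2*, *Cxcl10* and *Il6*) and in 0 of 2 high members (*Cx3cl1* and *Cxcl12*). It occurred in 17.6% of all 32851 windows of this length. *Cxcl13*, which is no member and was at 61.8 ± 11.1 TPM (SD, n = 5) in control libraries, also held a match, 63 to 54 bases before its start, so a match was not limited to low chemokines. The 170 bases nearest to the start are given 5′ to 3′ for all 6 genes to show where the matches lie, with NF-kB-like matches in capitals.
*Cxcl1* (chr5:90891075-90891244, plus strand): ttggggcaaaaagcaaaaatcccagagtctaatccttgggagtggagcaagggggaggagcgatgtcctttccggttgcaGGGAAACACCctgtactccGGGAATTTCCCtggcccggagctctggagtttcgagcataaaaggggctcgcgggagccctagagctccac
*Cxcl2* (chr5:90903729-90903898, plus strand): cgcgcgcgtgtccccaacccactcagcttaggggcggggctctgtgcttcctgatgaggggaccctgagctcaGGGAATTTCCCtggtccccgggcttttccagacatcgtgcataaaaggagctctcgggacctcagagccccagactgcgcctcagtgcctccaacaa
*Cxcl10* (chr5:92348890-92349059, minus strand): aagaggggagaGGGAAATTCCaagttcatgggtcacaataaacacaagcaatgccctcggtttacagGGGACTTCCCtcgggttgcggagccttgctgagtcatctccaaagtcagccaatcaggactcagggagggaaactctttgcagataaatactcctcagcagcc
*Il6* (chr5:30012944-30013113, plus strand): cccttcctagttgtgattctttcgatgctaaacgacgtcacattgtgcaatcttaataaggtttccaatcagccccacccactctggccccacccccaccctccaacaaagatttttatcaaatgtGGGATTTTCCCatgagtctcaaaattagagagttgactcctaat
*Cx3cl1* (chr8:94772010-94772179, plus strand): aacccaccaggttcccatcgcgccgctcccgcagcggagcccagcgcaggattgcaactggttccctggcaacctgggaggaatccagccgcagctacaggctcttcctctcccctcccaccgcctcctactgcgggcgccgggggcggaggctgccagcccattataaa
*Cxcl12* (chr6:117168365-117168534, plus strand): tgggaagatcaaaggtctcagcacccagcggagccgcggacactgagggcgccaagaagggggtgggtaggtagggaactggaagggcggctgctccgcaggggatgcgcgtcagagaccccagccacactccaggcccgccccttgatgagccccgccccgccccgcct
The matched stretch next to the start was the same 11 bases in *Cxcl1* and *Cxcl2*, 71 to 61 bases before the start of *Cxcl1* and 97 to 87 bases before that of *Cxcl2*. *Cxcl1* and *Cxcl10* held 2 separate matches each, and *Cxcl2* and *Il6* held 1. The AP-1-like motif TGANTCA was found in *Cxcl10* and *Il6* (6.75% of all windows) and the interferon response-like motif, GAAA repeated after any 2 bases, in *Cxcl10* alone (2.98% of all windows), 213 to 204 bases before the start. The windows of *Cx3cl1* and *Cxcl12* each held 14 CG pairs, against 10 in *Cxcl1*, 9 in *Cxcl2*, 5 in *Cxcl10*, 3 in *Il6* and a median of 6 over all windows. A match describes letters in a window, and binding was not measured.

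**Figure D3:**
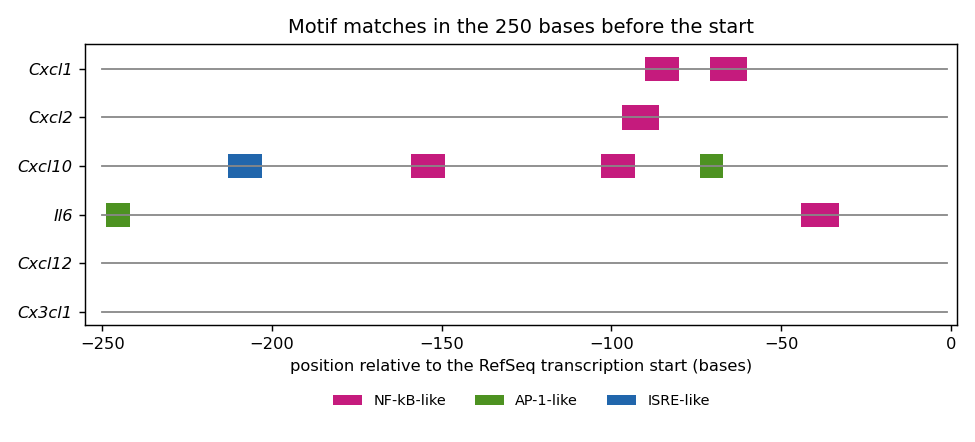
Motif matches in the 250 bases before the RefSeq transcription start of the 6 members with a window (horizontal axis, bases relative to the start). Pink bars are NF-kB-like, green bars AP-1-like and blue bars interferon response-like (ISRE) matches, with overlapping matches on both strands merged. The 4 upper genes, all below 6 TPM, carry NF-kB-like matches, and the 2 lower genes carry no match of the 3 motifs.

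*Cx3cl1*, which encodes fractalkine, a membrane-bound adhesion ligand and chemoattractant for CX3CR1-bearing monocytes, had the highest mean of the 10 genes in control and day 1 libraries and the second highest, after *Il34*, on day 5. *Cx3cl1* TPM was 80.9, 108, 74.2, 81.9 and 67.3 in control replicates 1 to 5, 80.7, 81.0, 60.8 and 69.9 on day 1, and 63.4, 76.9, 67.5 and 62.1 on day 5. Control replicate 2 was the highest, and the remaining libraries overlapped. The log2 fold change was -0.12 at day 1 (95% interval -0.39 to 0.15, adjusted p = 0.734, limma) and -0.24 at day 5 (-0.51 to 0.03, adjusted p = 0.311, limma).

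*Il34*, the ligand of the macrophage receptor CSF1R, had group means between 67.0 and 70.9 TPM, closer together than the libraries of any group. Control replicates 1 to 4 lay between 63.4 and 65.5 TPM and control replicate 5 at 86.7. Day 1 libraries had 62.1, 75.2, 85.4 and 45.5, and day 5 libraries had 93.4, 57.8, 64.5 and 67.9. The extremes of all 13 libraries were thus both in MN libraries, the lowest on day 1 and the highest on day 5. The log2 fold change was -0.02 at day 1 (95% interval -0.42 to 0.38, adjusted p = 0.977, limma) and 0.06 at day 5 (-0.34 to 0.46, adjusted p = 0.9, limma).

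*Cxcl12*, the homeostatic ligand of CXCR4, had TPM of 24.3, 20.1, 25.9, 27.3 and 24.7 in control replicates 1 to 5. On day 1 it was 35.4, 19.4, 27.2 and 28.1, and on day 5 it was 19.4, 45.7, 32.3 and 29.95. Day 1 replicates 1 and 4 and day 5 replicates 2 to 4 lay above the control maximum, and the SD was 6.55 on day 1 and 10.8 on day 5 against 2.72 in control libraries, a difference in spread that was not tested. In the limma fit its log2 fold change was 0.19 at day 1 (95% interval -0.26 to 0.63, adjusted p = 0.747) and 0.35 at day 5 (-0.09 to 0.79, adjusted p = 0.384). *Cxcl16*, a membrane-anchored chemokine that also acts as a scavenger receptor, had the smallest standard errors of the 6 tested genes. Its TPM was 16.2 to 23.0 in control libraries (median 17.1), 17.8 to 20.3 on day 1 (median 20.0) and 17.7 to 20.0 on day 5 (median 19.0). The day 5 interval of its log2 fold change, -0.17 to 0.28, corresponds to a fold between 0.89 and 1.21 (adjusted p = 0.832, limma).

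Day 5 and day 1 MN libraries were also compared directly. The 6 log2 fold changes lay between -0.12 (*Cx3cl1*) and 0.19 (*Cxcl1*), with adjusted p from 0.733 to 0.939 (limma), and 4 of 6 were above 0 (51.3% of all tested genes). At an unadjusted p under 0.05 in the limma fit 0 of 6 passed (15.5% of all tested genes), and 0 of 6 had groups of libraries that did not overlap (10.6%). The intervals were widest for *Cxcl10* (-0.75 to 0.95) and *Cxcl1* (-0.59 to 0.97). The permutation p-values of *Ccl2* (0.886) and *Cxcl2* (0.4, exact test) did not pass either, with a smallest possible p of 0.0286 over 70 splits.

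Of 18 genes for receptors and binding partners of these ligands, 9 passed the filter on low TPM and 0 were called at day 1 (0.0908% of all tested genes) or day 5 (3.21%). An unadjusted p under 0.05 was found for 2 of 9 at day 1 (12.6% of all tested genes) and 1 of 9 at day 5 (20.1%, limma). The other 9, among them the neutrophil receptors *Cxcr1* and *Cxcr2*, the CXCL10 receptor *Cxcr3*, the CXCL16 receptor *Cxcr6* and the fractalkine receptor *Cx3cr1*, stayed below 1 TPM in every library. Signalling subunits were abundant. *Il6st*, the shared signal transducer of IL-6, had 203 ± 23.6 TPM (SD, n = 5) in control libraries and *Il6ra*, the IL-6 receptor, 35.7 ± 7.76 (SD, n = 5). The scavenger receptors *Ackr3* (54.1 ± 7.05, SD, n = 5), which takes up CXCL12, and *Ackr2* (50.8 ± 6.14, SD, n = 5), which takes up CC chemokines, were of the same order, as was the syndecan *Sdc1* (59.2 ± 7.12, SD, n = 5). *Cxcr4*, the CXCL12 receptor, had TPM of 16.8 to 35.3 in control (median 30.5), 11.3 to 20.7 on day 1 (median 17.9) and 13.1 to 24.5 on day 5 (median 19.0), with log2 fold changes of -0.56 (adjusted p = 0.372, limma) and -0.43 (adjusted p = 0.36, limma). *Csf1r*, the receptor of IL-34, had 5.38 ± 1.37 TPM (SD, n = 5) in control libraries and 5.57 ± 0.428 (SD, n = 4) on day 5.

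Of the 3 enzymes that process these ligands, none was called at day 1 (0.0908% of all tested genes) or day 5 (3.21%). *Adam10*, a metalloprotease that releases CX3CL1 and CXCL16 from the membrane, had an adjusted p under 0.05 at day 5 with a change smaller than the threshold of 0.5. This gene was picked out after its values were seen. Its TPM was 66.2 to 73.0 in control libraries (median 70.7), 68.4 to 73.0 on day 1 and 82.0 to 91.1 on day 5. Day 5 and control libraries did not overlap, as for 10.7% of all tested genes. The log2 fold change was 0.32 (95% interval 0.21 to 0.42, adjusted p = 0.00128, limma). *Adam17*, the other sheddase, had 0.14 (adjusted p = 0.237, limma), and *Dpp4*, a peptidase that trims CXCL10 and CXCL12, had -0.22 (adjusted p = 0.338, limma).

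The remaining chemokines were read as a list of 29 genes, of which 11 were tested and 17 stayed below 1 TPM in every library. Only *Cxcl13*, the chemokine that attracts B cells through CXCR5, was called, higher on day 5 (1 of 11, against 2.42% of all tested genes called as higher). Its TPM was 57.3, 65.1, 45.9, 75.8 and 65.1 in control replicates 1 to 5. On day 1 it was 113, 110, 127 and 50.4, and on day 5 it was 230, 117, 192 and 179. Day 5 libraries did not overlap with control libraries, and on day 1 replicate 4 alone lay within the control range. Its change at day 5 was 1.54 on the log2 scale (SE 0.26, 95% interval 0.99 to 2.09, adjusted p = 0.00256, limma), and it stayed between 1.39 and 1.72 over 25 alternatives, with adjusted p from 0.000305 to 0.0237. At day 1 it was 0.67 (adjusted p = 0.33, limma), and the difference between the days, 0.87, did not pass (adjusted p = 0.128, limma). *Cxcl13* made up 22.7% to 32.6% of the summed TPM of the 37 chemokines in control libraries and 38.2% to 62.1% on day 5, whereas the 8 member chemokines summed to 111 to 154 in control libraries and 108 to 149 on day 5. Its receptor *Cxcr5*, looked up after these values were seen, was at most 0.275 TPM in any library.

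**Figure D4:**
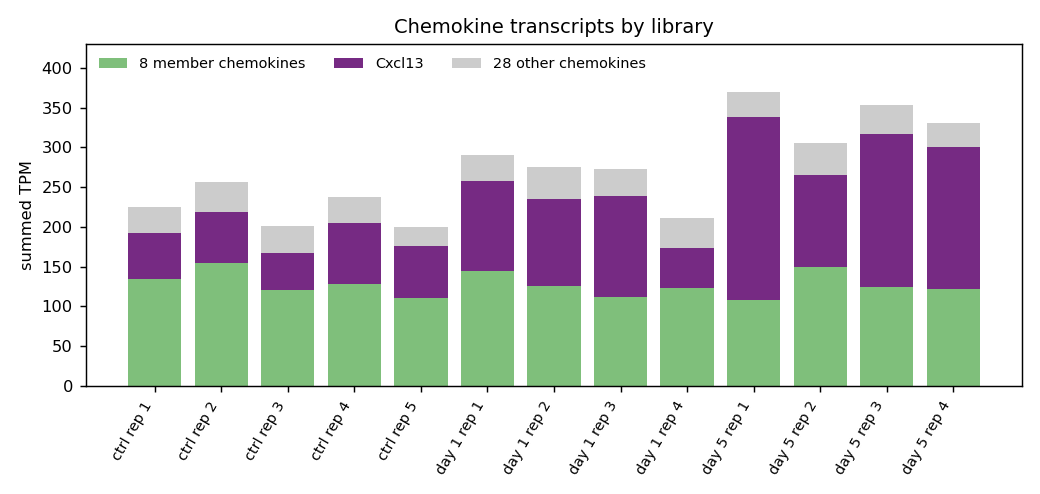
Summed TPM of 37 chemokine genes in each of the 13 libraries (linear axis from 0), split into the 8 member chemokines (green), *Cxcl13* (purple) and 28 other chemokines (grey). The green part stays between 108 and 154 while *Cxcl13* reaches 117 to 230 in day 5 libraries, against 45.9 to 75.8 in control libraries.

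Of 30 other cytokines, 17 were tested and 0 were called at day 1 (0.0908% of all tested genes) or day 5 (3.21%). An unadjusted p under 0.05 was found for 3 of 17 at day 1 (12.6% of all tested genes) and 1 of 17 at day 5 (20.1%, limma). Among 18 response and feedback genes of NF-kB and STAT signalling, 15 were tested. Of these, 0 were called at day 1 (0.0908% of all tested genes) and 2 at day 5, both higher (2.42% of all tested genes were called higher). In unscaled TPM, day 5 libraries did not overlap with control libraries for 4 of 15. *Tnfaip3* and *Junb* were higher on day 5, and *Zfp36* and *Ptgs2* were lower. The share over all tested genes, 10.7%, was taken on scaled TPM, on which *Zfp36*, which is among the 4, did overlap. *Tnfaip3*, a feedback inhibitor of NF-kB, had TPM of 7.44, 8.13, 5.80, 8.88 and 4.97 in control libraries. On day 1 it was 16.2, 9.68, 11.1 and 11.7, each above the control maximum (log2 fold change 0.79, adjusted p = 0.109, limma). On day 5 it was 11.7, 11.7, 11.98 and 13.4 (0.81, adjusted p = 0.00867, limma). The change was thus of similar size at both days, with 0.02 between them (adjusted p = 0.983, limma), although only day 5 was called. The paper, which tested counts, placed *Tnfaip3* among the genes changed at both days. *Junb*, a subunit of AP-1, rose from 55.6 ± 6.31 (SD, n = 5) to 77.0 ± 2.58 (SD, n = 4) (0.51, adjusted p = 0.0175, limma), and it was not called in 9 of 25 alternatives. The other 13 genes were not called, among them the NF-kB target *Nfkbia* (0.01 at day 5) and the IL-6 feedback gene *Socs3* (-0.14 at day 5).

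Markers of cell types were read beside these results. All 7 podocyte markers and all 7 endothelial markers passed the filter, with podocyte marker sums of 6597 to 8948 TPM in control libraries, and *Thsd7a*, the antibody target, fell from 174 ± 34.6 (SD, n = 5) to 97.2 ± 15.5 (SD, n = 4) on day 5. The 10 macrophage markers summed to 47.5 to 73.0 TPM in control, 56.4 to 81.4 in day 1 and 55.9 to 72.2 in day 5 libraries, sums carried mainly by *Lyz2* (23.7 in control) and *Cd14* (21.2). Of 8 tested, 0 were called at day 1 (0.0908% of all tested genes) or day 5 (3.21%). Their log2 fold changes were above 0 for 6 of 8 at day 1 (median 0.12, against 49.2% of all tested genes) and 8 of 8 at day 5 (median 0.31, against 49.3%). At day 5, 2 of 8 had an unadjusted p under 0.05 (20.1% of all tested genes, limma). *Adgre1*, a defining macrophage marker below the filter, had unscaled TPM of 0.211 to 1.60 on day 5 and 0.0323 to 0.210 in control libraries. These ranges nearly met, and they overlapped after scaling. The part of macrophages in the member values was not tested. The 6 neutrophil markers summed to 8.15 to 20.9, 12.9 to 31.05 and 6.06 to 26.2, with the defining marker *Ly6g* at most 0.275 in any library. Of 3 tested, 0 were called at day 1 (0.0908% of all tested genes) or day 5 (3.21%). Log2 fold changes were above 0 for 3 of 3 at day 1 (median 0.36, against 49.2%) and 1 of 3 at day 5 (median -0.07, against 49.3%). An unadjusted p under 0.05 was found for 1 of 3, *S100a9*, at day 1 (12.6% of all tested genes) and 0 of 3 at day 5 (20.1%, limma). The 8 lymphocyte markers summed to at most 4.44 TPM in any library, and none passed the filter. On day 1, all 7 proximal tubule and all 6 distal nephron markers had positive log2 fold changes (49.2% of all tested genes). Their medians were 0.72 and 0.67, although none was called (0.0908% of all tested genes). Their mean score was added to the fit as a term, an alternative added once the data had been seen. With it 0 of the 6 tested genes were called at either day, as without it. It also left 0 of all tested genes called at day 1, against 13 in the main fit. The score was 0.32 to 1.41 in day 1 libraries, and control replicate 5 (0.76) alone among control libraries reached that range. Score and day 1 could thus hardly be separated, and the part of tubular cells in the member values was not tested.

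The tested genes with the profiles nearest to the 2 members of lowest p were found by the Euclidean distance of standardized log2 values over 13 libraries. For *Cxcl1* they were *Anapc11* (1.46), *Tmed10* (1.62) and *Lipo3* (1.63), against a median distance of 4.87 over all tested genes and distances of 4.18 to 5.79 for the other tested members. For *Cx3cl1* they were *Efna1* (1.64), *Ldb1* (1.83) and *Gga1* (1.92), with a median of 4.92 over all genes. A search over this many genes finds near profiles by chance too, and likeness beyond chance was not tested. None of these 6 genes was called at day 1 (0.0908% of all tested genes) or day 5 (3.21%). The gene coordinates in GRCm39 (GENCODE vM39) place *Cxcl1* at chr5:91039094-91040974 and *Cxcl2* at chr5:91051730-91053797, 10755 bases apart on the plus strand, with *Cxcl10* at chr5:92494497-92496748 and *Cxcl13* at chr5:96104810-96108927. *Ccl2* (chr11:81926397-81928279) and *Ccl7* (chr11:81936532-81938351) lie 8252 bases apart. *Cx3cl1* lies at chr8:95498637-95509055, *Il34* at chr8:111423928-111532584, *Cxcl12* at chr6:117144945-117158328, *Cxcl16* at chr11:70344517-70352620 and *Il6* at chr5:30218112-30224979, and all are annotated as protein-coding.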

How the data were processed

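Glomerular RNA of 13 libraries was sequenced. Per the labels and the methods, the authors checked reads with FastQC 0.11.9, trimmed them with Trimmomatic 0.39, quantified them with Kallisto 0.46.2 against GRCm39, and deposited TPM, 1 value per gene symbol and library. TPM keep no read depth, so depth is unknown and no counting interval is given. Glomeruli were collected with magnetic beads after collagenase digestion, the mechanical route being described for co-immunoprecipitation. The authors tested counts with DESeq2, which were not used here.

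Each library's TPM were scaled by a median-of-ratios factor (0.955 to 1.04), computed from the 15772 genes without a value of 0, and log2(scaled TPM + 0.5) was used. The filter of 1 TPM in 4 or more libraries left 14322 of 35967 genes, to which limma 3.58.1 was applied under R 4.3.3 (lmFit, eBayes with trend, 3 groups, Benjamini-Hochberg adjustment within each contrast). Members below the filter were tested by exact two-sided permutation (scipy 1.17.1), unadjusted. Named genes were the members, called genes of the listed groups, receptors with a control mean of at least 5 TPM (1 of them is not reported here), *Thsd7a* and nearest profiles. Members and lists were chosen with earlier results of these data known. Alternatives covered pseudocounts, scaling, filters, trend, groups fitted, a replicate block, weights, thresholds and leaving out each library. The procedure was tested on simulated data.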

Additional observations from a re-analysis of the deposited data

Results flagged for a closer look

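For the members and *Cxcl13*, the highest and the lowest library of each group whose values were not all 0 were compared with the rest by Dixon's criterion. Of 27 such groups, 4 held a library far from the others. Chance flags about 1 in 20, a rate that does not apply to groups with several values at 0, as for *Ccl2* and *Ccl7*. *Ccl2* had 1.36 TPM in day 1 replicate 1, against 0 to 0.229 in the other day 1 libraries. *Ccl7* had 0.1465 TPM in day 5 replicate 2, against 0 in the other day 5 libraries, and this is its only value above 0. *Cxcl16* had 17.8 TPM in day 1 replicate 3, below the 19.92 to 20.33 of the other day 1 libraries but within the control range. *Il34* had 86.74 TPM in control replicate 5, against 63.38 to 65.49 in the other control libraries.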

How the results depend on the processing

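Of 444 refits of the 6 tested members under up to 25 alternatives, 427 kept their direction and their side of the threshold. Some of these refits could not change direction, such as those without a library of the group not compared, which leave the fold change as it was. Leaving out day 5 replicate 3 took the number of members called at day 5 from 0 to 1 (range 0 to 1 over the libraries left out), through *Cxcl1*. Changes of sign occurred in values close to 0 and none was called. For *Il34*, day 1 was 0.0773 with the replicate block and 0.00709 with array quality weights, and leaving out libraries gave -0.14 to 0.15 at day 1, -0.10 to 0.16 at day 5 and -0.0874 to 0.20 between days. Between days, leaving out libraries gave -0.0625 to 0.55 for *Cxcl1*, -0.17 to 0.33 for *Cxcl10* and -0.0394 to 0.36 for *Cxcl12*. With a term for the tubular marker score in the fit, an alternative chosen after seeing the data, *Cxcl12* at day 1 was -0.0407, *Cx3cl1* at day 1 was 0.0917, and between days *Cxcl1* was -0.0995 and *Cxcl10* -0.113. The cause was not tested.

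Replicate numbers did not pair the libraries, since deviations of the 12 same-numbered pairs correlated between -0.0563 and 0.0913. The replicate block changed no call of a member, and took *Junb* at day 5 to 0.48 and out of the calls. Control replicate 5 shares its number with no other library, so the block takes that library out of the comparison. The fold changes were the same as without it, as for *Cxcl13* at day 5 (1.58 in both). All genes called at day 1 (13) numbered 149 with the block, 217 without control replicate 5, 7 without the trend, 4 without the filter, 2 with only the compared groups and 0 with the tubular score. At day 5 (460) they numbered 321 to 876, the highest by adjusted p alone, and between days (259) 123 to 435. At day 1 *Tnfaip3* was called without control replicate 5 (0.70, adjusted p = 0.0387, limma) and *Junb* without day 1 replicate 3 (0.58, adjusted p = 0.0303, limma), and *Ccl6* at day 5 without day 5 replicate 4 (0.54, adjusted p = 0.0408, limma). Depth is unknown, which limits what can be said of members at or near 0.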
